A study of Mus musculus with 6 samples.

Results

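The genes of the mouse major histocompatibility complex (MHC), called H2 in the mouse, and of the machinery that makes and loads peptides for MHC molecules were compared between auditory nerves of young and old CBA/CaJ mice. The members were all rows of the expression table whose symbol starts with H2-, leaving out H2-Ke2 and H2-Ke6, together with B2m, Tap1, Tap2, Tapbp, Psmb8, Psmb9, Psmb10, Psme1, Psme2, Nlrc5, Cd74 and Ciita. This gave 37 of the 17607 genes in the table. They comprised 2 classical class I genes, 14 non-classical class I genes, 11 class II genes and 10 genes of antigen processing. Of the members, 30 lie on chromosome 17 between 33919478 and 37274485 (mm10), a stretch of 3.36 Mb, and 7 lie on other chromosomes. The libraries came from 3 young mice aged 2 months (young 1, 2 and 3) and 3 old mice aged 2.5 years (old 1, 2 and 3). CBA/CaJ is an inbred strain, and the labels name no transgene and no treatment. The nerve was dissected from the cochlea, and each library holds total RNA of a single mouse, pooled over its 2 cochleas.

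Classical class I molecules are surface proteins of nearly all nucleated cells. A heavy chain pairs with the light chain encoded by B2m and shows CD8+ T cells peptides cut from the cell's own proteins by the proteasome. Non-classical class I molecules share this fold, have fewer alleles and are mostly read by natural killer cells and unconventional T cells. Class II molecules are alpha and beta chain pairs, found mainly on macrophages, dendritic cells and B cells, which show CD4+ T cells peptides from material taken up by the cell. Interferon gamma raises the transcription of both classes, through NLRC5 for class I and CIITA for class II. In the cochlea, class II protein is best known from resident and recruited macrophages.

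Each library held 34587979 to 40841478 reads, recovered from the deposited values. Levels are normalised counts, which are reads divided by a size factor for the library, and each difference is the old mean minus the young mean of log2(value + 1), given with its standard error (SE). Markers of Schwann cells and spiral ganglion neurons were abundant in all 6 libraries: Prx, a protein of peripheral myelin, lay between 18634 and 30929.6 normalised counts, and Snap25, a neuronal membrane protein, between 62570.0 and 107390.0. The hair cell gene Otof (919 to 3099.8) and bone and connective tissue genes such as Col1a2 (4366 to 19095) were also present in every library. In bulk RNA, fewer cells of a type and less RNA per cell cannot be told apart. CBA/CaJ carries the k haplotype of H2, whereas the mm10 genome is from C57BL/6J, which carries the b haplotype. Reads of these polymorphic genes were therefore aligned to another strain's alleles in all 6 libraries alike. How far this and the near-identical class I copies moved reads between rows was not tested.

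Most class I genes, the immunoproteasome genes Psmb8 and Psmb9 and a few class II genes were higher in old nerves, and no member was called lower. Of the 37 members, 32 passed the filter on low counts, and 21 of these were higher at an adjusted p under 0.05 (limma, Benjamini-Hochberg over all 15882 genes tested). Over all genes tested, 15.9% were higher and 18.7% lower. No member was lower in limma, edgeR or DESeq2, nor at an unadjusted p under 0.05 (0 of 32 in each). By class, 2 of 2 classical, 9 of 10 non-classical, 3 of 10 class II and 7 of 10 processing genes were higher. The median log2 difference was 1.30, 1.08, 1.24 and 1.0 in these classes, 1.13 over the 32 members and -0.00 over all genes tested. In 24 of the 32 members every old library lay above every young library, an order found in 25.5% of all genes tested. H2-T9, H2-Bl and H2-Ob passed the filter through their old libraries, so a difference was built into their entry and these counts are descriptions. The 5 untested members were H2-Q10, whose highest library held 11.3 normalised counts, H2-Oa (15.5), H2-Q5 (6.58), H2-K2 (4.84) and H2-M5 (3.87). The count of 21 dropped to 10 without young 2, where 7.19% of all genes were higher, and to 12 without young 3, where 8.75% were.

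**Figure D1:**
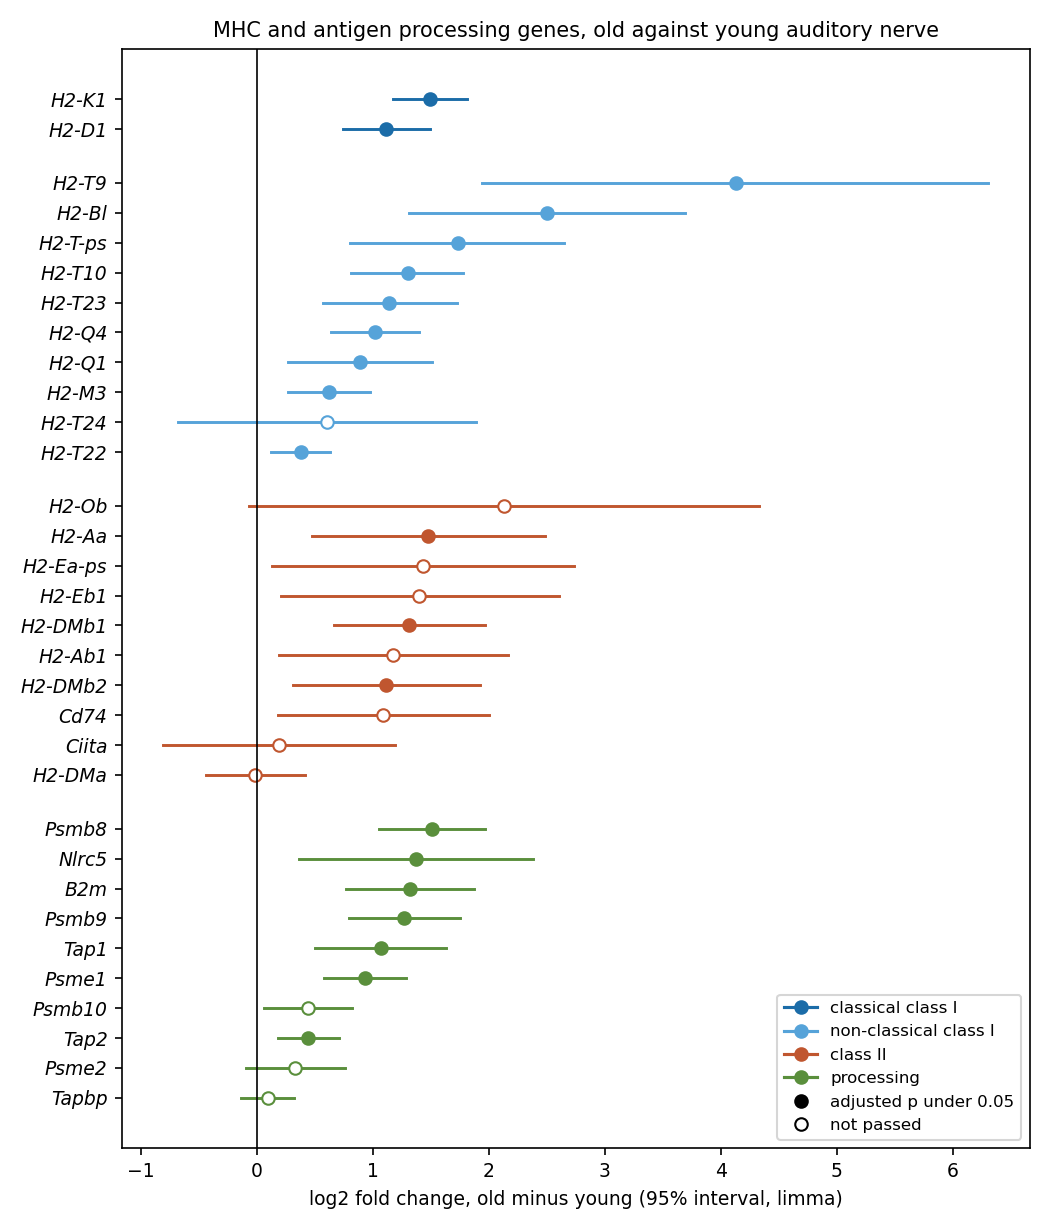
Old minus young difference on the log2(normalised count + 1) scale for each of the 32 tested members, grouped by class, with 95% confidence intervals from limma (3 libraries a group). Filled points are the 21 members with an adjusted p under 0.05, and all of them lie to the right of 0. H2-T9, H2-Bl and H2-Ob passed the filter through their old libraries, so their points are descriptions.

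Between the first and the last member on chromosome 17 lay 99 tested genes that are not members. Of these, 19 (19.2%) were higher and 25 (25.3%) lower in old nerves, with a median log2 difference of -0.01. These shares of the neighbouring genes can be read beside the 15.9% and 18.7% of all genes tested.

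The classical heavy chains H2-K1 and H2-D1, which present peptides to CD8+ T cells, were both higher in old nerves. H2-K1 (chromosome 17, 33996012 to 34000347, minus strand) had 959, 911 and 836 normalised counts in young 1 to 3 and 3004, 2583 and 2085 in old 1 to 3. The lowest old library was above the highest young library by more than the whole spread of either group. The means were 902 ± 62.1 and 2557 ± 460 (SD, n = 3 each), a 2.84-fold rise, with a log2 difference of 1.49 ± 0.14 (SE; 95% confidence interval 1.17 to 1.81; limma adjusted p = 0.00399). H2-D1 (chromosome 17, 35263094 to 35267497, plus strand) had 584, 487 and 508 counts in the young and 1408, 1127 and 925 in the old libraries. Here too the groups did not overlap, with old 1 highest and old 3 lowest. The log2 difference was 1.11 ± 0.16 (limma adjusted p = 0.00554), a 2.19-fold rise. Both genes kept an adjusted p under 0.05 in every fit that left out a single library.

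The promoters of these heavy chains are known for an upstream enhancer with a kappa B site and for CCAAT boxes closer to the start. The stretches below, from RefSeq promoter windows of the C57BL/6J genome (GRCm38.p6), show the shared layout of H2-K1 (chr17:34000334-34000469, minus strand), H2-D1 (chr17:35262912-35263046, plus strand) and the non-classical gene H2-Q4 (chr17:35379432-35379567, plus strand). Capitals mark GGGATTCCC, the kappa B letters searched, then ATTGG, the inverted CCAAT box, then CCAAT.
H2-K1: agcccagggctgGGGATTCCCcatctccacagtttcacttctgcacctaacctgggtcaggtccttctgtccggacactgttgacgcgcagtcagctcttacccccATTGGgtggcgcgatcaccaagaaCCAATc
H2-D1: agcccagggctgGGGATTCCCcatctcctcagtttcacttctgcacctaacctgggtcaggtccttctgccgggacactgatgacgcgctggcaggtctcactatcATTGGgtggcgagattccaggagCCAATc
H2-Q4: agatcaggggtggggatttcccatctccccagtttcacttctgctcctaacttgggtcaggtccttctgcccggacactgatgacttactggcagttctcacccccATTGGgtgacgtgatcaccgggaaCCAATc
The kappa B letters were found, on either strand, in H2-D1 and H2-K1 alone of the 24 members with a window, and in 0.353% of the 32851 windows in the table. In both genes they began 94 bases before the inverted CCAAT box. At this distance H2-Q4 holds gggatttcc, which differs from them at a single base, and only exact matches were counted. The windows of H2-K1 and H2-D1 share an identical run of 47 bases. CCAAT, on either strand, was found in 18 of the 24 members and in 37.4% of all windows. Each window spans 250 bases before to 50 after a start, and no matches of different motifs overlapped in the members' windows. A match is a description of letters and says nothing about whether a factor was bound.

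Non-classical class I genes were called higher in 9 of 10 tested cases, counting H2-T9 and H2-Bl, which passed the filter through their old libraries. H2-T23, which encodes the Qa-1 heavy chain, a ligand of natural killer cell receptors, had 532, 742 and 535 normalised counts in young and 1917, 1123 and 1055 in old nerves. All old libraries were higher, and old 1 stood well above the others. Its log2 difference was 1.14 ± 0.24 (limma adjusted p = 0.0135). H2-Q4, a gene of the Qa-2 region, had 378, 375 and 362 counts in young and 945, 749 and 605 in old nerves. The young libraries were nearly equal and the old ones fell in the same order as for H2-K1. Its log2 difference was 1.02 ± 0.16 (limma adjusted p = 0.00657). H2-T10, annotated as a polymorphic pseudogene in the C57BL/6J genome, rose from 44.2, 37.4 and 45.1 to 123, 103 and 90.9 counts, by 1.30 ± 0.21 (limma adjusted p = 0.00671). H2-T23, H2-Q4 and H2-T10 passed in all 6 fits that left out a library.

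Smaller or less stable rises were seen in the other members of the class. H2-T22, a ligand of gamma delta T cells, had 1044, 1095 and 1068 counts in young and 1633, 1289 and 1273 in old nerves, a log2 difference of 0.38 ± 0.11 (limma adjusted p = 0.0336). H2-M3, which presents formylated peptides of bacteria and mitochondria, had 129, 127 and 119 counts in young and 220, 185 and 176 in old nerves (0.62 ± 0.15, limma adjusted p = 0.0187). H2-Q1 had 80.9, 93.4 and 118 counts in young and 245, 178 and 131 in old nerves (0.89 ± 0.26, limma adjusted p = 0.0379). In each of these 3 genes the old libraries were all higher, with old 1 highest. H2-T22 missed the threshold without any of the 3 young libraries (adjusted p up to 0.0952 over these fits). H2-M3 missed it without young 2, young 3 or old 1 (up to 0.0665), and H2-Q1 in all fits but the one without old 3 (up to 0.107). After removal of trends with transcript length and GC content, the adjusted p was 0.245 for H2-T22, 0.129 for H2-M3 and 0.0845 for H2-Q1.

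Of the remaining 4 rows of the class, H2-T9, H2-Bl and H2-T-ps are low in young nerves and H2-T24 did not pass. H2-T9 and H2-Bl passed the filter through their old libraries, so their values and adjusted p are descriptions and no test of a rise. H2-T9 had 11.3, 1.97 and 1.1 counts in young and 242, 29.4 and 54.2 in old nerves (log2 difference 4.13 ± 0.93, limma adjusted p = 0.0155). It overlaps H2-T22 over 4284 bases on the same strand, so reads of these neighbours cannot be told apart where they overlap, and its level rested mostly on old 1. H2-Bl had 12.2, 2.95 and 6.61 counts in young and 53.9, 39.9 and 30.9 in old nerves (2.50 ± 0.51, limma adjusted p = 0.0114). H2-T-ps, an unprocessed pseudogene, had 10.3, 11.8 and 26.4 in young and 56, 56 and 43.5 in old nerves (1.73 ± 0.39, limma adjusted p = 0.0161). Neither overlapped between the groups. H2-T9 missed the threshold without young 2 or young 3 (adjusted p up to 0.0588), and H2-T-ps without young 2 or old 1 (up to 0.0609). H2-T24, at a higher level, had counts of 183, 330 and 208 in young and 898, 206 and 240 in old nerves (0.60 ± 0.55, limma adjusted p = 0.419), with the difference in the means carried by old 1.

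B2m, the light chain without which class I heavy chains do not reach the surface, also rose. Its levels were 6439, 5937 and 5432 normalised counts in young and 20180.1, 16058 and 9977 in old nerves. The groups did not overlap, and old 1 was highest and old 3 lowest among the old. The means were 5936 ± 503 and 15405 ± 5133 (SD, n = 3 each), and the log2 difference was 1.32 ± 0.24 (limma adjusted p = 0.00820). Removing the length and GC trends lowered the log2 difference to 0.71 (adjusted p = 0.0337). Per kilobase of its longest transcript B2m averaged 6902 normalised counts in young and 17913 in old nerves. On this per-length scale H2-K1 averaged 557 and 1579.6, H2-T22 607 and 794, H2-T23 410 and 927, H2-D1 250 and 549 and H2-Q4 207 and 427. In these measured levels H2-K1 and H2-T22 were close in young nerves, and H2-K1 was the highest heavy chain in old nerves. What the alignment to another haplotype did to this order was not tested.

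The core of an interferon-stimulated response element was searched as GAAA, 2 free bases and GAAA, on both strands, because interferon regulatory factors are known to bind it. Stretches that hold it are shown for B2m (chr2:122147533-122147572, plus strand), H2-T23 (chr17:36032801-36032840, minus strand) and H2-T22 (chr17:36042909-36042948, minus strand), from the same RefSeq windows, with the match in capitals.
B2m: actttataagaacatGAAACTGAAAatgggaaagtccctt
H2-T23: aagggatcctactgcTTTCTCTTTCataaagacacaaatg
H2-T22: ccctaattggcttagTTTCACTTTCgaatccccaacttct
Exact matches to the core were found in 4 of the 24 members, these and Psme1, and in 3.44% of all windows. Near matches were not counted, so a member without a match can still hold a variant of the element. The stretches of H2-K1, H2-D1 and H2-Q4 shown earlier share tttcacttct, which resembles the inverted core without matching it. TTCNNNGAA, the core of the gamma-activated site, was found in 3 members (H2-DMb2, H2-M3 and Psmb8) and in 8.3% of all windows.

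The TAP transporter, a dimer of TAP1 and TAP2, carries peptides from the cytosol into the endoplasmic reticulum. Tap1 (chromosome 17, 34187556 to 34197225, plus strand) had 338, 236 and 273 normalised counts in young and 799, 586 and 427 in old nerves, without overlap. Its log2 difference was 1.07 ± 0.24 (limma adjusted p = 0.0157), with an adjusted p of up to 0.0606 without young 2 or young 3. Tap2 had 1456, 1449 and 1465 counts in young and 2142, 2198 and 1657 in old nerves (0.44 ± 0.11, limma adjusted p = 0.0225). The groups did not overlap, and old 3 was the lowest old library. Tap2 passed in the fit without old 3 and missed in the other 5 (adjusted p up to 0.0741). Tapbp, or tapasin, which bridges TAP and the class I molecule, had 3895, 3882 and 3875 counts in young and 4413, 4536 and 3562 in old nerves. Old 3 lay below all young libraries, and the gene did not pass (0.09 ± 0.10, limma adjusted p = 0.482), though it did without old 3 (0.0284).

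Of 10 further genes of peptide loading and trimming, 2 were higher and 1 lower, with a median log2 difference of 0.35. The disulfide isomerase Pdia3 of the loading complex was higher by 0.36 ± 0.10 (limma adjusted p = 0.0298), and the chaperone Hspa5 by 0.53 ± 0.17 (0.0461). Neither passed after removal of the length and GC trends (0.0763 and 0.0667). Lnpep, an endosomal aminopeptidase that trims peptides for cross-presentation, fell by 0.57 on the log2 scale (SE 0.07, limma adjusted p = 0.00464), from 4085, 3912 and 3606 to 2662, 2537 and 2610.1 counts. The chaperones Hsp90b1 (0.34 ± 0.13, limma adjusted p = 0.0769) and Canx (0.10 ± 0.09, 0.406) did not pass. DESeq2 and the authors' deposited FDR (0.0274) called Hsp90b1 higher.

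The immunoproteasome replaces the 3 catalytic subunits of the standard proteasome with PSMB8, PSMB9 and PSMB10, which favours peptides that bind class I. Psmb8 (chromosome 17, 34198195 to 34201454) had 270, 232 and 236 normalised counts in young and 880, 749 and 522 in old nerves, without overlap. Its log2 difference of 1.51 ± 0.19 (limma adjusted p = 0.00499) was the highest among the 10 processing genes, although Nlrc5 was above it after removal of the length and GC trends (1.73 against 1.38). Psmb9 had 57.4, 46.2 and 56.2 counts in young and 137, 147 and 107 in old nerves (1.27 ± 0.20, limma adjusted p = 0.00671). Both passed in all 6 fits that left out a library. Psmb10 had 761, 723 and 803 counts in young and 1198, 1161 and 793 in old nerves. Old 3 fell inside the young range, and the limma adjusted p was 0.0714 (0.44 ± 0.16), or 0.00318 without old 3. DESeq2 and the authors' deposited FDR (0.0302) called Psmb10 higher. Psme1, a subunit of the PA28 activator that caps the proteasome, had 712, 703 and 779 counts in young and 1621, 1515 and 1101 in old nerves (0.93 ± 0.15, limma adjusted p = 0.00658). Its partner Psme2 had 91.2, 90.4 and 102 counts in young and 143, 114 and 104 in old nerves (0.33 ± 0.18, limma adjusted p = 0.193). The groups did not overlap for Psme2, but old 3 exceeded the highest young library only slightly. Psme2 has a close copy, Psme2b, which can split its reads.

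Psmb9 and Tap1 are transcribed away from each other, and the starts in the RefSeq windows are separated by the 225 bases shown here (chr17:34187331-34187555, written on the Tap1 strand), which is shown because both genes rose and share this stretch. CCAAT is in capitals.
Psmb9-Tap1: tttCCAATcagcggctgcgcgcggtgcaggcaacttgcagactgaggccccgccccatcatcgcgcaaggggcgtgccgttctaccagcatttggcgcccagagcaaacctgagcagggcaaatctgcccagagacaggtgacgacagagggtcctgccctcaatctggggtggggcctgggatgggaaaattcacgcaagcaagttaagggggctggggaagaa

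The standard subunits were also measured. Psmb6, the counterpart of Psmb9, had 3272, 3212 and 3182 normalised counts in young and 4257, 4238 and 4178 in old nerves (0.39 ± 0.05, limma adjusted p = 0.00544). Psmb7, the counterpart of Psmb10, was higher by 0.28 ± 0.07 (limma adjusted p = 0.0248). After removal of the length and GC trends neither passed, and the estimates were 0.07 (adjusted p = 0.366) for Psmb6 and -0.11 (0.327) for Psmb7. Psmb5, the counterpart of Psmb8, had 930, 881 and 979 in young and 955, 1009 and 1047 in old nerves and did not pass (0.11 ± 0.08, limma adjusted p = 0.313). The count of Psmb8 as a percentage of Psmb5 within each library was 29.0%, 26.3% and 24.1% in young and 92.1%, 74.2% and 49.9% in old nerves. That of Psmb9 to Psmb6 was 1.75%, 1.44% and 1.76% in young and 3.23%, 3.47% and 2.57% in old nerves. Neither ratio overlapped between the groups. With 3 mice against 3 the exact two-sided permutation test gave p = 0.10 for each, the smallest value it can give, and 0.150 after adjustment over the 3 ratios. The ratio of Psmb10 to Psmb7 was 18.2%, 20.3% and 20.8% in young and 25.8%, 24.1% and 17.1% in old nerves, with overlap (exact permutation p = 0.50, adjusted 0.50). These ratios do not depend on the size factors, and they are not corrected for transcript length. Psme3, whose product caps nuclear proteasomes, fell by 0.36 on the log2 scale (SE 0.06, limma adjusted p = 0.00807).

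**Figure D2:**
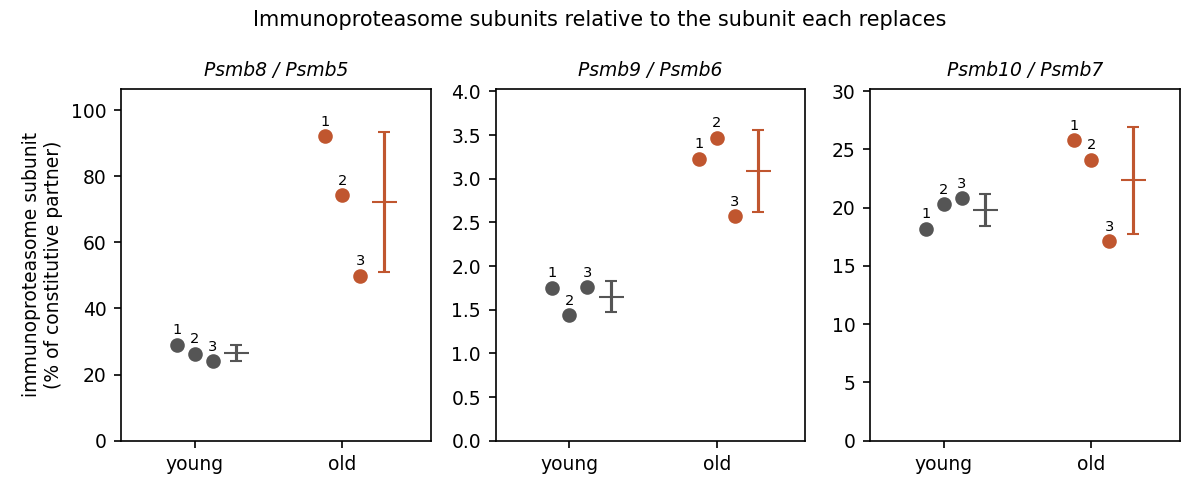
Normalised count of each immunoproteasome subunit as a percentage of the standard subunit it replaces, in each of the 3 young and 3 old libraries (numbered points), with the group mean and SD beside them. Psmb8 to Psmb5 spans 24.1% to 29.0% in young and 49.9% to 92.1% in old libraries, while Psmb10 to Psmb7 overlaps.

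Nlrc5, the transactivator of class I genes (chromosome 8, 94472763 to 94527272, plus strand), had 68.6, 60.9 and 44.0 normalised counts in young and 237, 186 and 74.5 in old nerves. The groups did not overlap, and old 3 was much closer to the young libraries than the others were. The log2 difference was 1.37 ± 0.43 (limma adjusted p = 0.0446). The gene passed without old 3 (0.00380) and missed in the other 5 fits that left out a library (adjusted p up to 0.132). Ciita, the class II transactivator, did not pass (0.19 ± 0.43, 95% confidence interval -0.81 to 1.19, limma adjusted p = 0.761), with levels of 23.6 to 54.5 counts in young and 28 to 67.4 in old nerves. The difference between the 2 transactivators was not tested.

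A list of 22 further regulators of MHC genes mixed promoter-binding factors with interferon receptors and signalling genes. Of these 22, 2 were higher and 1 lower, where 15.9% and 18.7% of all genes tested were. The median log2 difference of the list was -0.06. Rfx5, a subunit of the factor that binds the X box of both classes, had 944, 999 and 967 counts in young and 1500.1, 1319.9 and 1245 in old nerves (0.48 ± 0.09, limma adjusted p = 0.00888). Nfya, a subunit of the factor that binds CCAAT, fell by 0.70 on the log2 scale (SE 0.09, limma adjusted p = 0.00490), from 1263, 1412 and 1508 to 819, 860 and 885. The receptor chain Ifngr1 was higher by 0.31 ± 0.08 (limma adjusted p = 0.0239), but did not pass after removal of those trends (0.206). The kinase gene Jak1 (-0.08 ± 0.07, limma adjusted p = 0.394) and Creb1 (-0.14 ± 0.07, 0.169) did not pass.

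Class II genes were higher in 3 of 10 tested cases and varied widely between mice of a group. H2-Aa (chromosome 17, 34282751 to 34287771, minus strand), the alpha chain of the A molecule, had 115, 72.7 and 46.2 normalised counts in young and 144, 350 and 168 in old nerves. The groups did not overlap, though old 1 was only slightly above young 1. The log2 difference was 1.47 ± 0.43 (limma adjusted p = 0.0349), and it missed the threshold without young 2, young 3 or old 2 (up to 0.103) and after removal of trends with transcript length and GC content (0.107). Its partner H2-Ab1 had 16.5 to 30.1 counts in young and 34.9 to 82.6 in old nerves, without overlap (1.17 ± 0.42, limma adjusted p = 0.0668). H2-Eb1, the beta chain of the E molecule, had 146, 88.5 and 60.6 in young and 123, 467 and 258 in old nerves (1.4 ± 0.51, limma adjusted p = 0.0697). The E alpha gene, named H2-Ea-ps because the C57BL/6J allele is inactive while the k haplotype has a working copy, had 179, 65.9 and 48.5 in young and 145, 415 and 191 in old nerves (1.43 ± 0.55, limma adjusted p = 0.0838). In both E chain genes old 1 lay below young 1.

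Cd74 encodes the invariant chain, which fills the class II groove until the endosome. Its counts were 1711, 874 and 781 in young and 1580.5, 3718 and 1925 in old nerves, again with old 1 below young 1 and old 2 far above all others. It did not pass (1.09 ± 0.39, 95% confidence interval 0.18 to 2.00, limma adjusted p = 0.0649), but it did without young 1 (0.0313). H2-Ea-ps also passed without young 1 (0.0283), and H2-Eb1 without old 1 (0.0276). The 4 chain genes summed to 172 to 469 counts in young and 446 to 1314 in old libraries. Of the DM molecule, which exchanges peptides on class II, the beta chain gene H2-DMb1 had 43.3, 38.3 and 49.6 counts in young and 128, 138 and 74.5 in old nerves (1.31 ± 0.28, limma adjusted p = 0.0132; 0.0536 without young 2). H2-DMb2 had 17.9, 33.4 and 35.2 in young and 55.0, 80.7 and 51.3 in old nerves (1.11 ± 0.34, limma adjusted p = 0.0416). It missed the threshold in all 6 fits that left out a library (0.0513 to 0.116) and after those trends were removed (0.0982). The DM alpha chain gene H2-DMa had 375, 315 and 307 in young and 275, 419 and 302 in old nerves, with equal means of 332 counts (-0.02 ± 0.18, 95% confidence interval -0.44 to 0.41, limma adjusted p = 0.943). H2-Ob, the beta chain of the DO molecule that restrains DM, had 0 to 10.8 counts in young and 18.4 to 22.2 in old nerves (limma adjusted p = 0.118).

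The class II count depended on the test and on single mice. DESeq2 and the FDR in the authors' deposited table each placed 6 class II members above in old nerves, adding H2-Ab1, H2-Ea-ps and H2-Eb1, against 18.6% and 16.8% of all genes higher by these rules. Without young 2 no class II member passed in limma, though 4 had an unadjusted p under 0.05, and without young 3 or without old 2 only 1 did (11.3% of all genes were higher without old 2). Per kilobase of transcript, Cd74 averaged 796 normalised counts in young and 1708 in old nerves, H2-Ea-ps 94.3 and 241, H2-Aa 69.1 and 196, H2-Eb1 58.9 and 169, and H2-DMa 166 and 166. The measured levels of Cd74 per length were thus several times those of any chain gene in both ages. The chain genes are polymorphic and were aligned to another haplotype, and what this did to the comparison was not tested.

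Class II promoters are known for an X box followed by an inverted CCAAT box, the Y box. For the X box, the letters AG, 2 free bases, AC, 1 free base and GATG were searched on both strands. Stretches of H2-Eb1 (chr17:34305763-34305822, plus strand) and H2-DMb1 (chr17:34153085-34153144, plus strand) show the pair in capitals, and H2-Aa (chr17:34287857-34287916, minus strand) shows the inverted CCAAT box, with no match to the X box letters searched in its window.
H2-Eb1: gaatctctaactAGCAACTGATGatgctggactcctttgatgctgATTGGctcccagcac
H2-DMb1: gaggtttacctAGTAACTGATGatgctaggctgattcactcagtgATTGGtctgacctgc
H2-Aa: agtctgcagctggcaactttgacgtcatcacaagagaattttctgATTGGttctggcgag
The distance between the starts of the X box and of the inverted CCAAT box was 33 bases in H2-Eb1, 34 in H2-DMb1 and 98 in H2-Oa. The X box letters were found in 4 of the 24 members (H2-DMb1, H2-Eb1, H2-Oa and Psmb10) and in 0.968% of all windows.

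Genes of the endosomal steps that feed class II were higher in 6 of 7 tested cases, with a median log2 difference of 0.58. Ctss, the protease that degrades the invariant chain, had 871, 668 and 662 normalised counts in young and 3695, 3395 and 2397 in old nerves (2.09 ± 0.18, limma adjusted p = 0.00399). It is also a macrophage marker. Ifi30, which reduces disulfide bonds in endosomes, was higher by 0.75 ± 0.10 (limma adjusted p = 0.00499) and Ctsl, another endosomal protease, by 0.57 ± 0.10 (0.00805). The protease Lgmn did not pass (0.05 ± 0.08, limma adjusted p = 0.643).

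The classes differed in which old mouse stood highest. Old 1 was the highest old library for 2 of 2 classical, 10 of 10 non-classical and 7 of 10 processing genes. Old 2 was the highest for 9 of 10 class II genes, and old 1 the lowest for 6 of them. Old 3 was the lowest old library for 24 of the 32 tested members, including all 10 processing genes. Among the young, young 1 was the highest for 7 of 10 class II genes. The members of a class share libraries and neighbouring genes, so these orders describe 6 mice and carry no test.

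**Figure D3:**
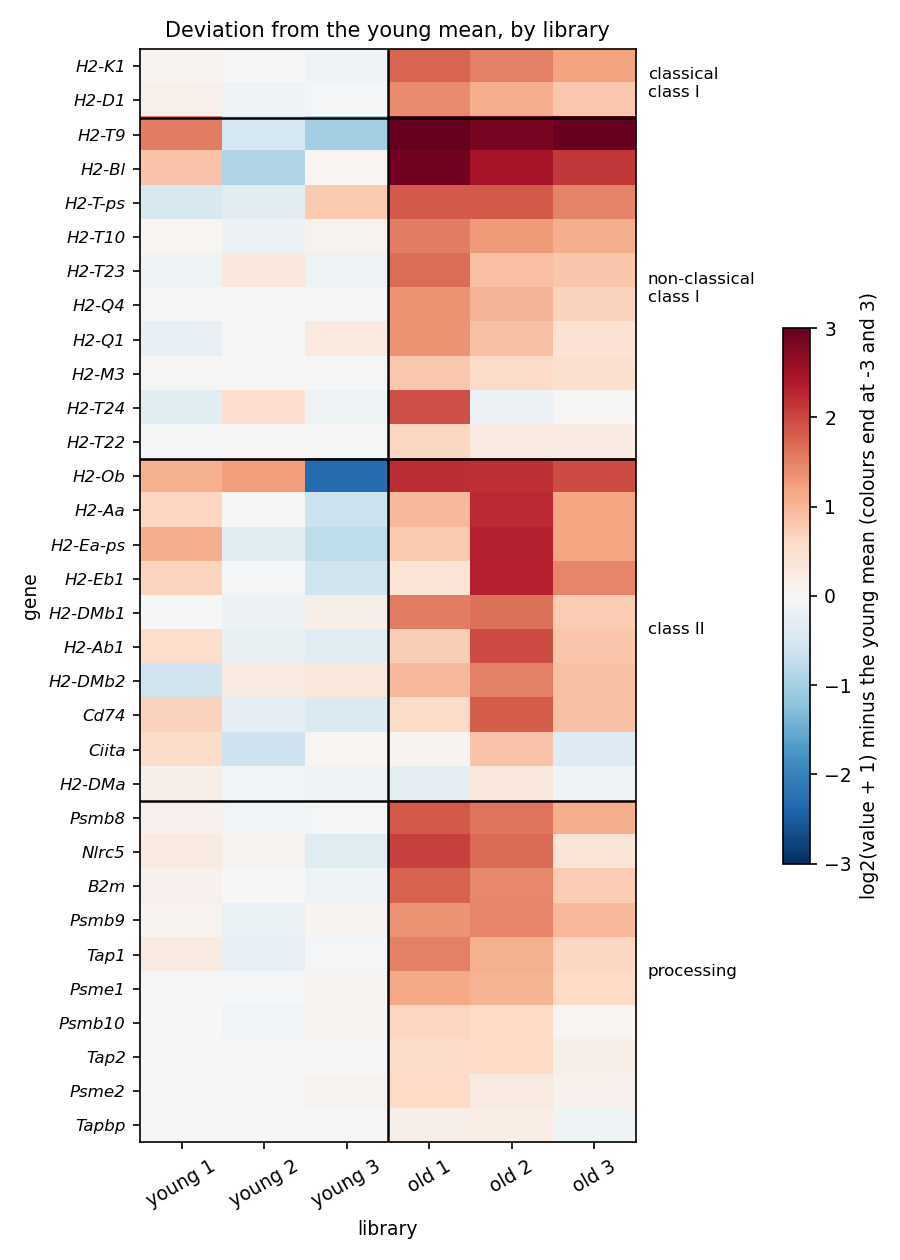
Level of each tested member in each of the 6 libraries, coloured by its difference from the gene's young mean on the log2(normalised count + 1) scale, with genes grouped by class. Old 1 is the highest old library for 2 of 2 classical and 10 of 10 non-classical genes, and old 2 for 9 of 10 class II genes.

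Marker genes of other cells moved in the same libraries. Of 16 macrophage and microglia markers, 14 were higher in old nerves, with a median log2 difference of 1.80, and their summed level was 7002 to 9413 normalised counts in young and 17648 to 26588 in old libraries. Old 2 was the highest old library for 13 of these 16 genes, old 3 the lowest for 15 and young 1 the highest young library for 15. The complement gene C1qa, made by macrophages, had 804, 616 and 715 counts in young and 3469, 3694 and 2466 in old nerves (2.16 ± 0.17, limma adjusted p = 0.00399). The macrophage markers Cx3cr1 (0.35 ± 0.20, limma adjusted p = 0.220) and Mrc1 (0.35 ± 0.30, 0.393), did not pass. Of 19 tested interferon-induced genes, 2 were higher, with a median log2 difference of 1.22, and the list summed to 7236 to 9045 in young and 10453 to 48503 in old libraries. Old 1 was the highest old library for 18 of the 19 and old 3 the lowest for 18. The 2 that passed were Oas1a (2.17 ± 0.51, limma adjusted p = 0.0178) and Ifit2 (1.19 ± 0.29, 0.0207). This count depended on the tool: edgeR called 4 of the 19 higher, where it called 16.1% of all genes higher. DESeq2 called 12, and 11 were higher by the FDR in the authors' deposited table. Ifit3, an interferon-induced RNA-binding protein gene, had 1085, 1597 and 1552 counts in young and 12533, 3854 and 1838 in old nerves (limma adjusted p = 0.0718). The part of these lists, and of the neuron and bone lists, in the members' levels was not tested.

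Most lymphocyte markers were low. Cd3e, which all T cells carry, was at 1.06 to 14.2 counts over the 6 libraries, with overlap between the groups, Ms4a1, a B cell gene, at 0 to 4.91, and Ncr1, of natural killer cells, at 0 to 6.61. The T cell genes Cd3d (0.983 to 4.70 in young, 6.34 to 8.70 in old), Cd8a (0.94 to 2.20 and 2.90 to 9.49) and Cd8b1 (0 to 1.1 and 2.11 to 3.87) were also low and under the filter. In all 3 every old library lay above every young library, an order found in 25.5% of all genes tested. At these levels it rests on a few reads. Of the 4 tested T cell markers 2 had lower estimates in old nerves, Cd4 (-0.35 ± 0.41, limma adjusted p = 0.524) and Thy1 (-0.39 ± 0.17, 0.116), and 2 had higher estimates. None of the 4 tested T cell markers passed in either direction, nor did the 1 tested natural killer cell marker, in limma, edgeR or DESeq2. At an unadjusted p under 0.05 limma had 1 T cell marker higher, Lck (0.92 ± 0.36, adjusted p = 0.0881), and 0 natural killer markers. The T cell list summed to 17465 to 20272 in young and 10889.8 to 17637 in old libraries, nearly all of it Thy1, which neurons also express. The natural killer list summed to 23.6 to 43.3 in young and 22.2 to 66.6 in old libraries. Of 4 tested B and plasma cell markers 1 was called higher, the antibody joining chain gene Jchain, which had 52.7, 11.8 and 4.40 counts in young and 142, 240 and 165 in old nerves. Of 7 tested dendritic cell markers limma called 2 higher and 0 lower. Flt3 had 1909.6, 2006 and 1751 counts in young and 1068, 1385 and 1732 in old nerves (-0.46 ± 0.17, limma adjusted p = 0.0677). All its old libraries were lower, an order found in 26.3% of all genes tested. DESeq2 and the authors' deposited FDR called Flt3 lower. Itgax, which macrophages can also express, had 19.7, 8.85 and 3.3 counts in young and 258, 394 and 242 in old nerves. Jchain and Itgax passed the filter through their old libraries, so these values are descriptions. Siglech, of plasmacytoid dendritic cells, was higher by 0.59 ± 0.17 (limma adjusted p = 0.0361), but not after removal of the length and GC trends (0.147). The dendritic list, whose largest part is Flt3, summed to 2194 to 2498 in young and 1819 to 2532 in old libraries, and Xcr1 was at 0 to 10.4.

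Endothelial markers had 0 higher and 1 lower of 8, and summed to 15702 to 16238 in young and 14602 to 17406 in old libraries. Spiral ganglion neuron markers had 0 higher and 3 lower of 9, and summed to 354664 to 359075 in young libraries and to 239655, 277583 and 331531 in old 1, 2 and 3. Old 3 was the highest old library for 8 of these 9 genes and old 1 the lowest for 6, the opposite of the order in class I and processing genes. Bone and fibroblast markers had 0 higher and 4 lower of 9, and summed to 53080.1 to 59566 in young and 34183 to 65575 in old libraries. Old 2 was the highest old library for 8 of these 9 genes, old 3 the lowest for 7 and young 1 the highest young library for 7, as in the macrophage list. Hair cell markers had 0 of 6 called in either direction by limma, edgeR or DESeq2 (also 0 at an unadjusted p under 0.05).

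**Figure D4:**
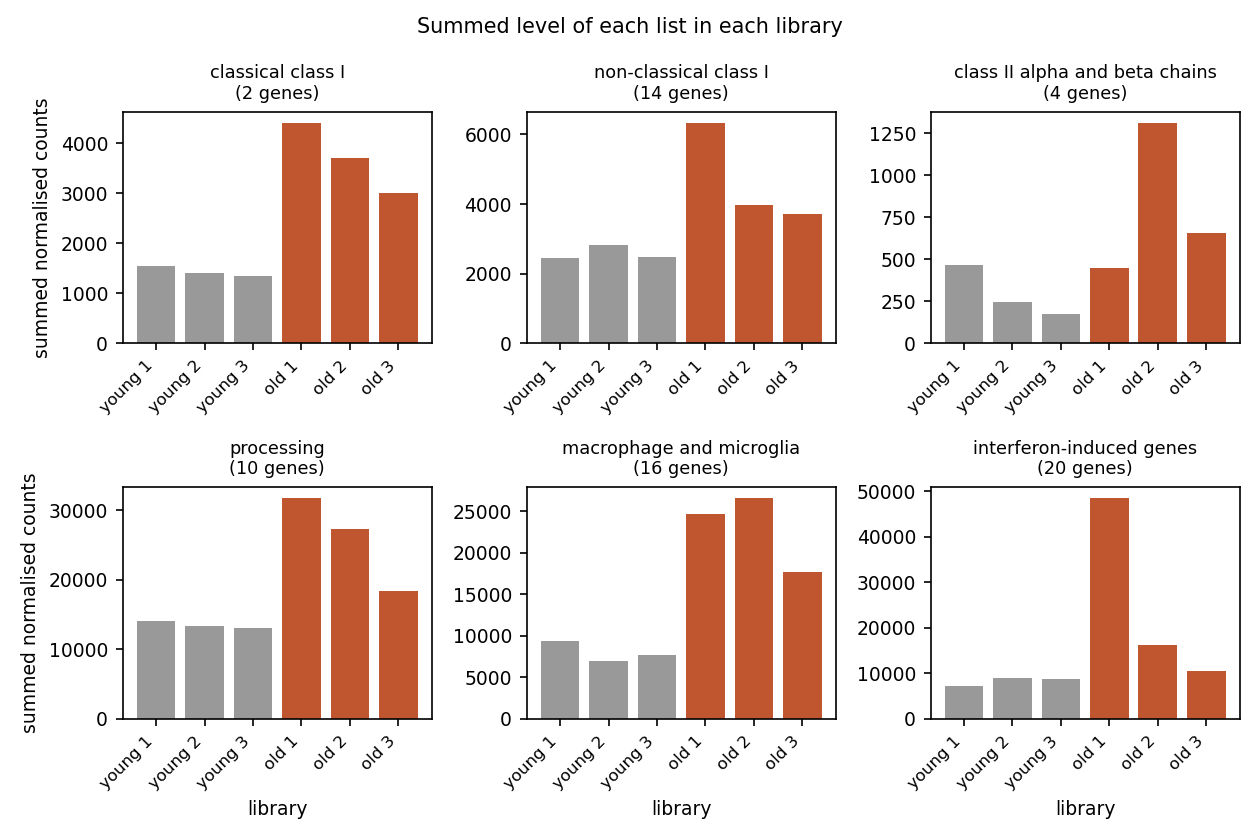
Summed normalised counts of classical and non-classical class I, the 4 class II alpha and beta chains, processing, macrophage and interferon-induced genes (panels) in each of the 3 young (grey) and 3 old (orange) libraries. Class I and interferon-induced sums are highest in old 1, and the class II chain and macrophage sums in old 2.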

How the data were processed

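RNA-seq libraries of the auditory nerves of 6 mice (3 young, 3 old) were analysed from 1 deposited table of 17607 genes. Per library the authors had divided reads by a size factor, so the unit is a normalised signal, as the deposited values show. Whole reads were recovered for 99.931% to 99.971% of values (tolerance 0.1). Per the file headers, the authors computed the FDR and a signed fold change, which is a score. The submitters' processing notes name TopHat2, Partek, DESeq2 and the genome mm10. For versions, annotation, strand and reads with several positions, nothing is given in the sources used here.

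The main test was limma (3.58.1) on log2(value + 1), with empirical Bayes variances that follow a trend, two-sided, called at a Benjamini-Hochberg adjusted p under 0.05. The 15882 genes tested passed edgeR's filterByExpr (minimum count 10, minimum total 15). On simulated data for old against young, run on 15882 genes, the test recovered 66 of 67 genes changed 2-fold and 28 of 67 changed 1.5-fold. The simulation gave every gene the same dispersion and changed only well-expressed genes. These shares need not hold for genes that vary more between mice, such as Cd74 (log2 difference 1.09, SE 0.39), which did not pass. Recovered reads were also tested with edgeR (4.0.16) and DESeq2 (1.42.0), which called 2559 and 2954 genes higher. Between replicates, chi-square over its degrees of freedom was 19.3 to 67.2, above sampling noise.

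The subunit ratios were tested by exact permutation. Levels per kilobase use the longest GENCODE M21 transcript. Promoter windows are from RefSeq (GRCm38.p6), and 24 members had one. Values in each library are printed for members with an adjusted p under 0.05 or a mean of at least 100 normalised counts. From other lists, up to 3 genes with the smallest p and up to 2 abundant genes that missed are named, with marker genes added to show tissue and cell types. The members and lists were chosen with earlier results of these data known. Alternatives were another tool, scaling, filter, pseudocount and threshold, the removal of length and GC trends (mgcv 1.9.3), a block for replicate number and leaving out libraries. Some marker genes are not reported here.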

Additional observations from a re-analysis of the deposited data

How the results depend on the processing

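No member was called lower under any of the 20 alternatives. edgeR, TMM and upper-quartile scaling, no filter and pseudocounts of 0.5 and 8 kept all 21 members, and a minimum count of 50 kept 18, since H2-Bl, H2-T9 and H2-T-ps were then not tested. Upper-quartile scaling moved the calls over all genes from 2524 higher and 2969 lower (45.9% higher) to 3439 and 2338 (59.5% higher). DESeq2 and the authors' deposited FDR each called 6 class II members higher. With length and GC trends removed, 15 members were kept, 5 of them non-classical and 1 class II, with 1850 genes (11.8%) higher and 1901 lower overall. H2-T9 has no transcript length and was not tested there. At an adjusted p under 0.01, 8 members were higher (2 non-classical, 0 class II by limma, 4 processing), with 763 genes higher and 1103 lower overall. At the threshold of 0.05 limma called 3 class II members, and edgeR the same 3.

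Leaving out 1 library at a time gave 10 to 22 members higher, 4 to 9 non-classical, 0 to 4 class II and 4 to 9 processing, with 1159 to 2757 genes higher and 1430 to 3360 lower overall. Without young 1 and old 2 together, 11 members were higher (4 non-classical, 2 processing), with 831 genes higher and 945 lower overall. The labels do not say that equal replicate numbers mark pairs. Deviations of same-numbered mice from their group means correlated at -0.291, -0.412 and -0.0499, and no sample correlated best with its own number. Whether same-numbered samples were handled together cannot be told from these correlations. With a replicate block 13 members were higher (5 non-classical, 0 class II), with 1078 genes higher and 1633 lower overall. With the replicate block and the trends removed together, 1 member was higher, the classical gene H2-K1 (0 non-classical, 0 class II, 0 processing), with 31 genes higher and 3 lower. The cause of these changes was not tested. Of the 3 subunit ratios none changed direction. At these depths, genes under about 10 reads a library were filtered out of the main test, and 3 mice a group limit the precision. The planned comparison of protein sequences was not run.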

Other observations

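Class I-like genes outside the H2 region and a list of costimulators and receptors, not all of which bind MHC molecules, were also measured. Of 5 tested class I-like genes 2 were higher in old nerves, with a median log2 difference of 0.40. Mr1, which presents vitamin B metabolites to unconventional T cells, had 885, 875 and 892 normalised counts in young and 1485, 1274 and 1122 in old nerves (0.54 ± 0.11, limma adjusted p = 0.0113). Hfe, whose product controls iron uptake, was higher by 0.48 ± 0.14 (limma adjusted p = 0.0387). Fcgrt, the neonatal Fc receptor (0.21 ± 0.13, limma adjusted p = 0.248), and Procr, the protein C receptor (0.40 ± 0.16, 0.0938), did not pass. Of 9 tested costimulators and receptors 4 were higher, with a median of 0.82. The paired immunoglobulin-like receptor gene Pirb, an inhibitory receptor that binds class I, had 32.0, 23.6 and 23.1 counts in young and 69.8, 72.1 and 62.9 in old nerves (1.36 ± 0.24, limma adjusted p = 0.00792). Lilrb4a, a related inhibitory receptor, was higher by 1.53 ± 0.25 (limma adjusted p = 0.00719), and Cd86, the costimulator of T cells on antigen-presenting cells, by 1.31 ± 0.28 (0.0126). Cd274, the ligand of the inhibitory receptor PD-1, did not pass in limma (adjusted p = 0.112). DESeq2 and the authors' deposited FDR (0.0443) called Cd274 higher.

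Partners of the same complex were set against each other per kilobase of transcript within each library, without a test. H2-DMa to H2-DMb1 was 6.07, 5.75 and 4.34 in young and 1.5, 2.13 and 2.84 in old nerves, without overlap. Tap2 to Tap1 was 3.70, 5.27 and 4.60 in young and 2.30, 3.22 and 3.32 in old nerves, also without overlap. Psme2 to Psme1 was 0.148, 0.149 and 0.152 in young and 0.102, 0.0869 and 0.110 in old nerves. H2-K1 to B2m was 0.0791, 0.0815 and 0.0817 in young and 0.0791, 0.0854 and 0.111 in old nerves, with overlap, so the heavy and light chain were in a like ratio in all libraries but old 3.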
